A study of Mus musculus with 2 samples.

Results

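The genes described here are the small nuclear RNAs (snRNA), small nucleolar RNAs (snoRNA) and small Cajal body RNAs (scaRNA) detected in adult mouse heart. They were chosen by their GENCODE M21 biotype and by measured values, a deposited TPM (transcript abundance per length, scaled to a fixed total) of at least 1 in both libraries. This left 107 genes of the 2943 annotated with these biotypes, among 11716 genes of all biotypes that passed the same threshold and 55536 genes in the tables. Genes that shared both their sequence and their counts were treated as 1 unit: 5 such units held 19 genes, so that the 107 genes made 93 units.

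Total RNA, 300 ng per library, came from the heart of adult female mice of a 5xFAD/CAST cross at 8 to 10 months of age. The 5xFAD transgenes are mutant human genes of familial Alzheimer's disease under the neuronal Thy1 promoter, and CAST mice are an inbred line of wild origin. The series holds 1 group of 2 libraries, replicate 1 and replicate 2, with no control genotype, age or tissue. The labels give the replicates separate biosamples and 1 donor identifier, so that every SD below (n = 2) measures only the spread between these libraries, and no test of a condition was possible. The libraries held 45599940 and 40801299 expected counts. The cardiomyocyte markers Myh6, Tnni3, Tnnt2, Actc1 and Ryr2 reached means of 366 to 7725 TPM, the lung markers Sftpc and Sftpb had 0 counts in both libraries and Ager 2 and 0 counts, and the skeletal muscle markers Myh4, Myh1 and Tnnt3 stood at 0.342 to 3.69 TPM. TPM values are given over endogenous genes, without spike-ins.

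Box C/D snoRNAs guide the methylation of ribose in ribosomal and other RNAs, and box H/ACA snoRNAs guide the conversion of uridine to pseudouridine, each by base pairing with its target. Cajal body RNAs carry the same boxes and guide the modification of spliceosomal RNAs. The spliceosomal snRNAs are the RNA core of the machine that removes introns, and most mouse snoRNAs are cut out of the introns of host genes. In a bulk sample, fewer cells of a type and less RNA per cell cannot be told apart.

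Units were classed by symbol, by a RefSeq entry of the same span or, where neither gave a class, by biotype. In this way 7 units were box C/D, 18 box H/ACA, 13 Cajal body and 15 snRNA. A further 39 were snoRNAs with no family name (Gm symbols) and 1 was another snoRNA entry, Mir1949. Sequences of the leading members are given from the GENCODE M21 transcripts (GRCm38, the build of the tables), 5′ to 3′ with T for U. Capitals mark a guide RNA box or, in Rnu12, the Sm site on which the ring of Sm proteins assembles. For box C/D, Snord15b (chr7:99479563-99479707, minus strand) and Gm22486 (chr6:71882557-71882693, minus strand), which RefSeq names Snord94, are shown as the highest named members, with box C (TGATGA) and box D (CTGA). For H/ACA, Snora73b (chr4:132352322-132352526, minus strand), the Cajal body RNA Scarna13 (chr12:105031075-105031349, minus strand) and the unnamed Gm22988 (chr11:69669635-69669778, minus strand) show the ACA box near the end. Gm26447 (chr16:23111301-23111429, plus strand), the member with the highest TPM, has its last ACA 1 base from the annotated end, outside the window of 3 to 8 bases searched. Rnu12 (chr15:83149644-83149794, plus strand) is the minor-spliceosome U12.
Snord15b: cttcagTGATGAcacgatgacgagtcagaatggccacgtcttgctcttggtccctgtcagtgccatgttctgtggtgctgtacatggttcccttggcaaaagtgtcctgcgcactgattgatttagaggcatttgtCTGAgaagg
Gm22486: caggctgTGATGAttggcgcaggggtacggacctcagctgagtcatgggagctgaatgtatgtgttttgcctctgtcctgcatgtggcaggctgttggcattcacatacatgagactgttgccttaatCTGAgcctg
Snora73b: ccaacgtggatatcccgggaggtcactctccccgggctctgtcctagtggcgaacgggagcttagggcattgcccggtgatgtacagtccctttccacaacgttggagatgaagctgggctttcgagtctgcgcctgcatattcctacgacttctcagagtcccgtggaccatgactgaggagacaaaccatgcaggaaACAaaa
Scarna13: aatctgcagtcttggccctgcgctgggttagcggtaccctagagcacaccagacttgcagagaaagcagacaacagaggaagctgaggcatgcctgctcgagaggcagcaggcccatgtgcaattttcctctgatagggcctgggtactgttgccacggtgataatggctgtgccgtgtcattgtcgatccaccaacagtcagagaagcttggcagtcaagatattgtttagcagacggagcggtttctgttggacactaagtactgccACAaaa
Gm22988: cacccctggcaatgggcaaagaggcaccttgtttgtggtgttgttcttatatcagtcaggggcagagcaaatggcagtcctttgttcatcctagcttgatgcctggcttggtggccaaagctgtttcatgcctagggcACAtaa
Gm26447: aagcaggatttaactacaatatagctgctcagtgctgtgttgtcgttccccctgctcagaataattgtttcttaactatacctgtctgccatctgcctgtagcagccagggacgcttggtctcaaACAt
Rnu12: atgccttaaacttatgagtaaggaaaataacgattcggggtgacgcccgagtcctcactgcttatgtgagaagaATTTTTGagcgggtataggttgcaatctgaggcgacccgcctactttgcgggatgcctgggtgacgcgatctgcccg

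The boxes searched were found in most units of the classes named for them. CTGA lay in the last 20 bases of 7 of 7 box C/D units and TGATGA in the first 20 bases of 4 of them. Among 5946 annotated genes of other biotypes of 50 to 300 bases, 10.5% held CTGA there. ACA lay 3 to 8 bases before the end of 15 of 18 H/ACA units, of 28 of 39 unnamed snoRNA units and of 11.3% of the other genes. Of the 13 Cajal body units, 5 held this ACA, 5 held CTGA and 3 held neither in these windows. Among unnamed snoRNAs that were not members the share with this ACA was 18.1% of 1301. These include 361 genes of up to 100 bases, so the shares are not matched for length. ATTTTTG or ATTTTTTG, the forms of the Sm site searched, was found in 9 of 15 snRNA units and in 89 of the 5946 other genes. The snRNA units without it were the U1 copies and Gm25541. Other forms of the site were not searched, so a missing match does not show that a unit lacks an Sm site. All searches used the strand of the transcript, and a match is a description of letters, not a mapped site.

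Annotated length set a lower limit on what could be detected. In the gene tables the effective length of every member was its annotated length minus 100 bases, and all 2452 genes of up to 100 bases, of any biotype, had 0 counts in both libraries. Of the annotated box C/D genes, 87 of 110 (79.1%) are this short and could not be members, against 0 of 42 H/ACA genes and 216 of 1385 snRNA genes. No member was shorter than 121 bases, and 0 of 1002 genes of 101 to 120 bases were members. The members were 46 of 886 genes of 121 to 140 bases (5.19%) and 14 of 33 of 201 to 300 bases (42.4%). Of the genes of other biotypes in these ranges, 8 of 931, 5 of 463 and 51 of 2096 passed the threshold. The part of length in the rise among the small RNAs, apart from that of gene class, was not tested. Replicate 1 by itself added 27 genes above the threshold and replicate 2 by itself 8, and 2081 genes longer than 100 bases had 0 counts in both. The detected set is therefore a set of the longer small RNAs, and the absence of a short box C/D snoRNA from it says nothing of its level in heart.

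**Figure D1:**
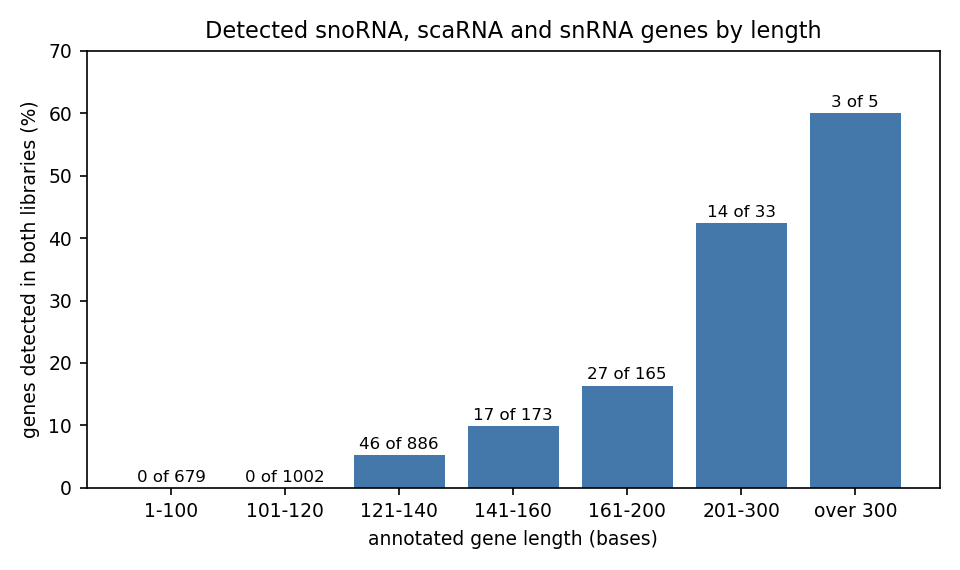
Share of annotated snoRNA, scaRNA and snRNA genes that reached a deposited TPM of 1 in both libraries (y axis, %), by annotated length (x axis, bases), with the number detected over each bar. No gene of up to 120 bases was detected, and the share rises to 3 of 5 above 300 bases.

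The short effective lengths also scale the levels. For the 129-base Gm26447, with an effective length of 29, a single count was worth 0.889 TPM in replicate 1, whereas for the 414-base Scarna2 it was worth 0.0821 TPM. Over all members the median level was 22.4 TPM (23.1 in replicate 1 and 17.8 in replicate 2), against 7.57 for all 11716 detected genes. The median mean count of the members, however, was 38, against 603 for all detected genes. By TPM the members were thus above the typical detected gene and by reads far below it. Levels ran from 1.42 to 792 TPM, with 18 units at 100 TPM or more and 34 under 10 TPM. Together the members took 1.24% of endogenous TPM in replicate 1 and 0.835% in replicate 2, and 0.0871% and 0.0598% of endogenous counts.

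The rule's threshold fell among genes with single counts. Just inside it lay Gm25107 (4 and 1 counts in replicates 1 and 2), Gm24029 (2.91 and 1.57) and Gm23297 (8 and 1), at deposited TPM of 1.03, 1.09 and 1.10 in the lower library. Just outside it lay Gm24620 (4 and 1 counts, 0.99 TPM), Rnu11 (3 and 1 counts, 0.88 TPM), the U11 RNA that recognises the 5′ splice site of minor introns, and Snora30 (1 and 1 counts, 0.85 TPM). Gm25107 and Gm24620 had the same counts and differed in annotated length, 129 against 130 bases. Near the threshold a single count, or a single base of length, could thus decide membership.

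Among box C/D units, Snord15b was the highest, with 710.49 and 424.79 expected counts in replicates 1 and 2, or 407 and 283 TPM. It guides methylation of ribosomal RNA and lies in the span of Rps3, a ribosomal protein gene, together with Snord15a, which had 65.0 and 56.2 TPM. Gm22486 (Snord94, a guide for the snRNA U6) stood at 151 and 94.8 TPM in the span of Ptcd3. Snord22, from the non-coding host Snhg1, had 86.1 and 58.4 TPM, and Snord17, from Snx5, 56.6 and 52.3 TPM. All of these units were lower in replicate 2, by the least in Snord17 (log2 ratio -0.18) and Snord15a (-0.27).

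The U3 RNA, a box C/D RNA needed to process the small-subunit ribosomal RNA, shows how annotation entered the counts. Its loci carry 10 gene entries, and the 4 Rnu3b loci are each annotated at 215 and at 216 bases. The 216-base entries (Rnu3b1 to Rnu3b4, members) had 153.35 and 157.25 counts each, and the 215-base entries had 188.40 counts each in replicate 1 and 0 in replicate 2, and so were not members. Rnu3a, a member on chromosome 10, had 101 and 38 counts. Over all U3 entries the counts were 1468 in replicate 1 and 667 in replicate 2, a scaled fold of 0.504 (95% counting interval 0.459 to 0.553), whereas over the members alone it was 1.04 (0.931 to 1.15). The 215-base entries thus held most of the difference between the libraries, and the Rnu3b units' credibility bounds reached nearly 0 TPM (0.00106 and 0.00432 at the lower end).

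Among the H/ACA units, the copies of the U17 RNA led. Snora73b had 1406.27 and 1137.39 counts (345 and 325 TPM) and Snora73a 957.80 and 747.68 (235 and 213 TPM), both within Snhg3, a non-coding host gene at 7.40 and 4.71 TPM. U17 acts in the processing of the small-subunit ribosomal RNA rather than as a modification guide. Snora74a followed at 245 and 194 TPM. The next were well below these: Snora68 had 38.9 and 29.7 TPM, Snora78 21.2 and 23.6, and Snora44 32.3 and 11.0. The class therefore rested on 3 RNAs of 196 to 205 bases, since the median over its 18 units was 9.35 TPM and 8 units had a mean count under 10.

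Cajal body RNAs held the longest members and, per gene entry, the highest counts, although the snRNA class held more counts in sum (19710 and 9191 against 10578.5 and 8384). Scarna2, a guide for U2 methylation with no host gene in the annotation, had 4656 and 4328 counts (382 and 413 TPM, 398 ± 21.7). Scarna10, a guide for U5 within Ncapd2, had 2985 and 1876 counts (342 and 250 TPM), and Gm22009, in Kpna4, 1477 and 1109 counts (157 and 137 TPM). Scarna13, in Snhg10, had 402 and 408 counts, and Gm25395, in Atg16l1, 516 and 267. Gm25492, in Bud23, had 64.9 and 54.8 TPM from 73 and 53 counts. Levels thus did not move together: Scarna2 and Scarna13 had log2 ratios of 0.04 and 0.17, and Gm25395 -0.80. Per annotated length in place of effective length, Scarna2 was the highest of all units (353 ± 16.0) and Gm26447 the fifth (209 ± 26.5).

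**Figure D2:**
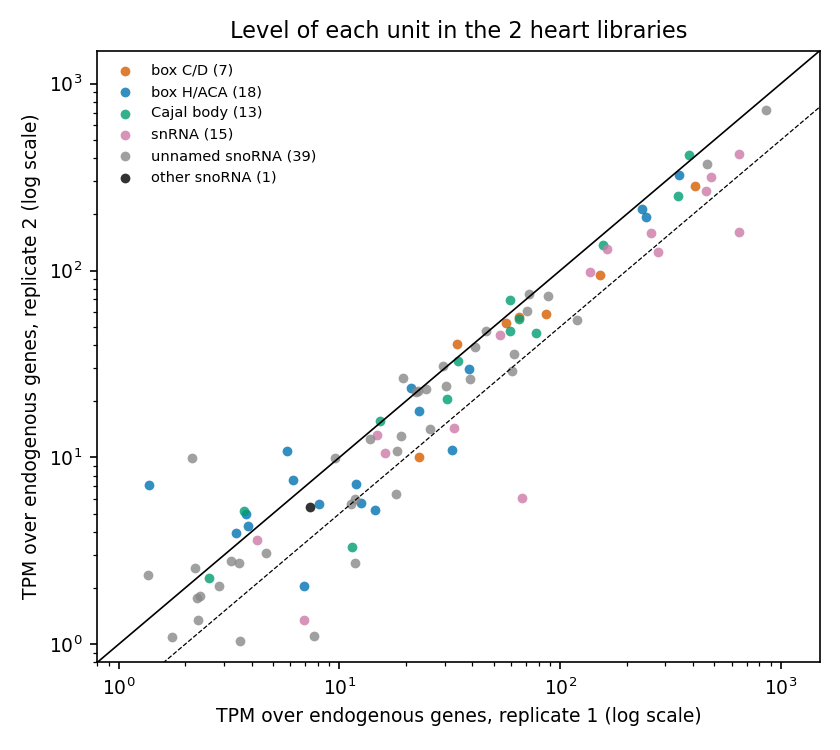
TPM over endogenous genes of each of the 93 units in replicate 1 (x axis) and replicate 2 (y axis), both on log scales, coloured by class with the number of units. The solid line marks equal levels and the dashed line a replicate 2 level of 1 over 2. Most points lie below the solid line, snRNA units among them at up to 645 TPM in replicate 1.

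Of the spliceosomal snRNAs, which took 0.693% of endogenous TPM in replicate 1 and 0.385% in replicate 2, many exist as near-identical copies. Gm24265 and Gm24407 on chromosome 5 carry the letters of textbook U4, the partner that holds U6 inactive until the spliceosome is activated, although the reference tables give them no family name. Gm24265 had 1025 and 575 counts (645 and 420 TPM) and Gm24407 725 and 365 counts (456 and 267 TPM), with a posterior SD (the authors' measure of how far reads could be assigned elsewhere) of 0 counts in both libraries. Both were lower in replicate 2, at log2 ratios of -0.68 and -0.84. Their annotated sequences, chr5:115489459-115489599, plus strand, and chr5:115490254-115490394, plus strand, differ by G88A and C99A, counted from 1 at the 5′ end with the base of Gm24265 first, and these bases are in capitals.
Gm24265: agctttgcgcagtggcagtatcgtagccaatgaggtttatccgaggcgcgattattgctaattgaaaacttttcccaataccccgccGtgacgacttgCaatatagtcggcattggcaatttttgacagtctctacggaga
Gm24407: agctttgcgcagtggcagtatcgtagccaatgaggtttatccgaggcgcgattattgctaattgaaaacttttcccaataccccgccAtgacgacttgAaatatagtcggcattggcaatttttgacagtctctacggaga

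U1, which recognises the 5′ splice site, had 33 annotated copies of at least 90% identity to Rnu1a1, of which 16 had counts and 12 were members. The 7 copies with the sequence of Rnu1a1 had 638.65 and 339.22 counts each. Their posterior SDs ran from 307.49 to 514.65 in replicate 1 and from 206.34 to 300.92 in replicate 2. The split of counts among these loci is therefore uncertain. Together the 7 copies held 76.1% and 81.1% of the U1 counts. Gm22513 differs from Rnu1a1 by T60C alone, and its 690.24 and 268.78 counts had posterior SDs of 0.92 and 0.81. Gm24305, with A26G, had 166.35 and 12.89 counts. Summed over all copies U1 had 5878 and 2928 counts, a scaled fold of 0.552 (0.528 to 0.578) for replicate 2 over replicate 1, and 2367 and 1371 TPM. Rnu1a1 (chr11:87422867-87423030, plus strand) and Gm22513 (chr12:54696782-54696945, plus strand) are shown with position 60 in capitals.
Rnu1a1: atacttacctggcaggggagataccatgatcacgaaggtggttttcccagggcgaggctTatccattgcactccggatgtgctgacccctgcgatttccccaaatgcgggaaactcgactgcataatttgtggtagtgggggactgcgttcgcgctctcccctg
Gm22513: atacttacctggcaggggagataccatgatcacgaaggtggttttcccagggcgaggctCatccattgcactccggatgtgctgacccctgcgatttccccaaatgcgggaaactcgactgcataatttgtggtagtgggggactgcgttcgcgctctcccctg

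U2, which pairs with the branch point, had 14 annotated copies, 11 with counts and 10 of them members. The 4 copies with the sequence of Rnu2-10 had 1707.97 and 960.93 counts each (484 and 316 TPM). Gm23444 and Gm23472, which share G109C, had 2270.93 and 485.86 counts each. The posterior SDs were 942.69 and 457.58 for Rnu2-10 and 923.40 and 452.57 for Gm23444, and the split among U2 copies is likewise uncertain. Gm24497, with G109C and C186A, had 2.75 counts in replicate 1 and 1348.86 in replicate 2, at 0.77 and 442 deposited TPM, and so was not a member. Over members alone the fold was 0.485 (0.469 to 0.501), and over all U2 copies, with 12044 and 6615 counts, it was 0.609 (0.591 to 0.628). The U2 total was thus lower in replicate 2 by either sum. Rnu2-10 (chr11:101658238-101658428, plus strand), Gm23444 (chr11:83271498-83271688, plus strand) and Gm24497 (chr1:72244213-72244403, plus strand) are shown with positions 109 and 186 in capitals.
Rnu2-10: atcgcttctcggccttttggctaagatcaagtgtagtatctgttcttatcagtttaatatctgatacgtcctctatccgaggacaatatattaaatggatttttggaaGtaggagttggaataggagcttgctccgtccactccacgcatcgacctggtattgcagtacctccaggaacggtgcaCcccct
Gm23444: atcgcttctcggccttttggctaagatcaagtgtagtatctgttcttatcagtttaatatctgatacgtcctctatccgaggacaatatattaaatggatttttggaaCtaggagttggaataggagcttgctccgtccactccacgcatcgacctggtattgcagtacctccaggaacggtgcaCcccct
Gm24497: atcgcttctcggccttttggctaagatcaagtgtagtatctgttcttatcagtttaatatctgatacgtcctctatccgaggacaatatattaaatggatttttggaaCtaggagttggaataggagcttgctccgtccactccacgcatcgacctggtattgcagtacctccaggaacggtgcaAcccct

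**Figure D3:**
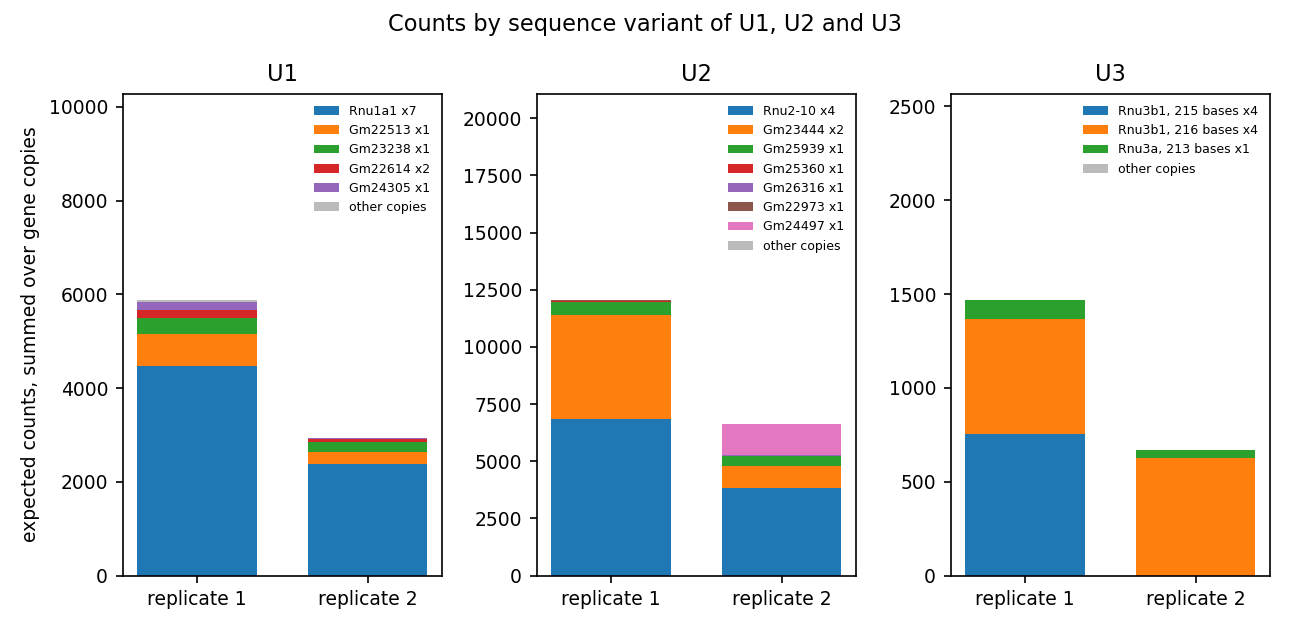
Expected counts (y axis, each panel with its own scale from 0) in replicates 1 and 2, stacked by sequence variant of U1, U2 and U3 and labelled with 1 gene of the variant and its number of copies. In U2 the 1348.86 counts of Gm24497 appear in replicate 2 alone, and in U3 the 215-base entries appear in replicate 1 alone.

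The minor spliceosome, which removes a rare class of introns, was represented by Rnu12 (32 and 18 counts, 16.2 and 10.6 TPM) and by Gm25541 (54 and 39 counts, 53.6 and 45.0 TPM), which carries the letters of textbook U6atac without a family name in the reference tables. Both were below Rnu1a1, Rnu2-10 and Gm24265 on the TPM scale, though Gm25541 stood above the less abundant U1 copy Gm24305 (mean 36.5 TPM). No unit carried the name of U4, U5, U6 or U7.

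The unnamed snoRNAs included the highest member of all. Gm26447 had 965.01 and 702.58 counts (858 and 726 TPM, 792 ± 93.5) and lies within Eif4a2, a translation initiation factor gene, where it also overlaps an annotated exon. Gm22988, within Eif4a1 and likewise over an exon of it, had 785.88 and 545.07 counts (461 and 371 TPM). Gm25788 and Gm22154, both 131 bases long and within Pabpc4, had 119 and 54.1 TPM and 88.2 and 73.5 TPM. Gm23262, in Eif4g2, had 72.1 and 75.1 TPM, and Gm26397, in Tomm20, 70.5 and 60.8 TPM. The class was steep: its median over 39 units was 14.6 TPM, and 14 units had a mean count under 10. Mir1949 had 11.66 and 7.47 counts.

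For 75 of the 93 units another gene on the same strand spanned the locus. There were 62 such host genes, and 59 units lay in protein-coding ones. The 39 unnamed snoRNA units had a host throughout, as did 15 of 18 H/ACA, 11 of 13 Cajal body, 6 of 7 box C/D and 3 of 15 snRNA units. By symbol 8 hosts were ribosomal protein genes, 3 initiation factor genes and 9 non-coding hosts (Snhg genes and Dancr). Over the 75 units Spearman's rho between unit and host TPM was -0.01, as a description of units that share libraries and partly hosts. The 75 include the 3 snRNA units and the Rnu3b unit, and spanning a locus does not show that the RNA is cut from that gene. Rnu1a1, at a mean of 208 TPM, was set against Tex14 at 0.0503 TPM, although most of its copies lie on another chromosome. Whether host level orders the snoRNAs cut from introns was therefore not tested.

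Units within the same host differed widely. In Eif4a1, at 59.3 TPM, Gm22988 reached a mean of 416 TPM, Gm25835 22.9 and Gm24029 1.42. In Eif4a2, at 137 TPM, Gm26447 reached 792 and Gm24616 3.85. In Rps3, at 127 TPM, Snord15b reached 345 and Snord15a 60.6. Of the 12 hosts with more than 1 unit, Pabpc4 held the closest pair, at 86.6 and 80.8 TPM, and Eif4a1 the widest range. In all, 34 units overlapped a same-strand exon of another entry, 27 of them an exon of the host itself. Reads of the host cannot be told apart from those of the guest there. Among the 27 were the high members Gm26447, Gm22988, Snord15b, Gm22486, Scarna10, Gm23262 and Snora73a, and also the low members Gm24616 and Gm24029.

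Between the libraries the members were not evenly spread. Among the 67 units whose mean count reached 10, 12 were at least 2-fold lower in replicate 2 and 0 at least 2-fold higher (TMM-scaled counts, prior count 2), with 61 below a log2 ratio of 0 and 6 above it. Over all 11673 genes that passed the same filters, 0.523% were 2-fold apart either way, 0.317% lower and 0.206% higher in replicate 2. The median log2 ratio of the members was -0.41, against -0.01 over all these genes. With no minimum count 18 units were 2-fold apart, among them 2 higher ones, Gm22748 (3 and 12 counts) and Snora52 (1.97 and 8.77), and the U2 copy Gm24497, higher in replicate 2, is left out by the rule of membership. With 2 libraries of 1 group this is a difference between libraries, and no test of it was made.

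Short genes of other kinds varied by biotype. Among the 198 genes of other biotypes of up to 414 bases, 7.58% were 2-fold apart either way, more than among all genes, but their median log2 ratio was -0.02, and over the 18 of them of up to 200 bases it was -0.12. Most of the 198 were processed pseudogenes (97 genes, median -0.01) and protein-coding genes (50 genes, -0.01). Small sets of other kinds were lower, with medians of -0.32 for 3 ribozyme genes and -0.44 for 4 unprocessed pseudogenes, and 3 miRNA genes were higher (0.61). Among members the median was -0.38 for 36 units of up to 150 bases, -0.68 for 17 of 151 to 200 bases and -0.19 for 14 longer ones. By class it was -0.68 for snRNA (15 of 15 units below 0), -0.59 for box C/D, -0.42 for H/ACA, -0.32 for unnamed snoRNAs and -0.28 for Cajal body units. The 51 units with a host had a median of -0.38 and their 45 hosts 0.01, and 45 of the 51 had a lower ratio than their host. The 16 units without a host had a median of -0.76. Replicate 1 also had more expected counts, higher summed skeletal muscle markers (8.09 against 5.54 TPM) and lower summed liver markers (0.664 against 1.92 TPM). The liver sum followed Alb (7 and 76 counts in replicates 1 and 2), while Apoa2 went the other way (8 and 6 counts). The part of these differences in the offset was not tested.

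**Figure D4:**
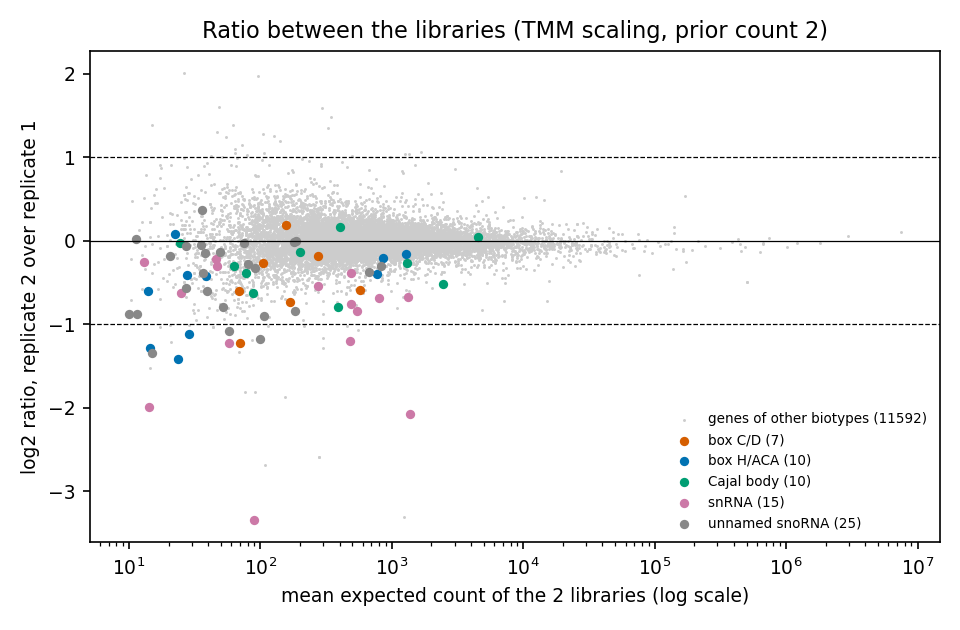
Log2 ratio of replicate 2 over replicate 1 (y axis, TMM scaling, prior count 2) against the mean expected count (x axis, log scale) for genes of other biotypes (grey) and for the 67 units with a mean count of at least 10, coloured by class. Dashed lines mark 2-fold. Of the units, 12 lie at or below -1 and 0 at or above 1.

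The largest ratios sat in families of near-identical copies. The lowest were Gm24305 (log2 ratio -3.35), Gm23444 (-2.07) and Gm26316 (24.41 and 4.13 counts), copies of U1 and U2. Snora44 (-1.41, 36.37 and 10.65 counts), Gm25989 (-1.35, 23 and 7 counts) and Snora43 (-1.29, 22 and 6.82 counts) followed. A second Snora43 entry, inside the span of the member, had 0 counts in replicate 1 and 9.18 in replicate 2. It was not a member, so the Snora43 ratio depends on how reads were split between the entries. Of the 12 units called, 6 had a posterior SD above 10% of their count in a library, a sign of reads shared with other genes, and 6 did not. Among the latter were Gm22513 and Gm25788, whose folds were 0.432 (0.374 to 0.498) and 0.434 (0.313 to 0.595). The 6 units above 0 were Gm25835 (0.37), Rnu3b1 (0.18), Scarna13 (0.17), Snora78 (0.08), Scarna2 (0.04) and Gm23925 (0.02). Counting error alone covered a fold of 1 in 33 of the 67 units, while 33 had an interval wholly below 1 and 1, the Rnu3b unit, wholly above it.

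A scaling shifts all genes nearly alike, so it bears on the ratios against 0 and not on the gap between members and other genes. With spike-in totals the median of all genes moved to 0.21 and that of the members to -0.20, with 8 units called and 48 of 67 below 0. Without the units of shared counts the median was -0.38 over 56 units with 6 called. With U1, U2 and U3 each summed over all annotated copies 6 units were called.

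In the direct tables, which the authors derived from the reads rather than from an alignment, few of the same RNAs appeared. Only 9 of 93 units reached 1 TPM in both libraries, and 74 had 0 in both, among them 63 of the 63 units of up to 160 bases. All 9 were 238 bases or longer, and all 9 units above 230 bases were among them. Scarna2 had 330 and 386 TPM there, Scarna10 258 and 215, Gm23547 180 and 169, Gm22009 161 and 160, Gm25395 78.3 and 39.5, and Snord17 77.4 and 48.7. For most of these the direct counts were below those of the gene tables, such as 3190 and 3001 against 4656 and 4328 for Scarna2. Gm23547, which overlaps an exon of its host Phb2, went the other way, with 655 and 519 against 195.53 and 176.43. The abundant U1, U2 and U17 RNAs, in contrast, had at most 1.29 counts per gene in the direct tables.

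**Figure D5:**
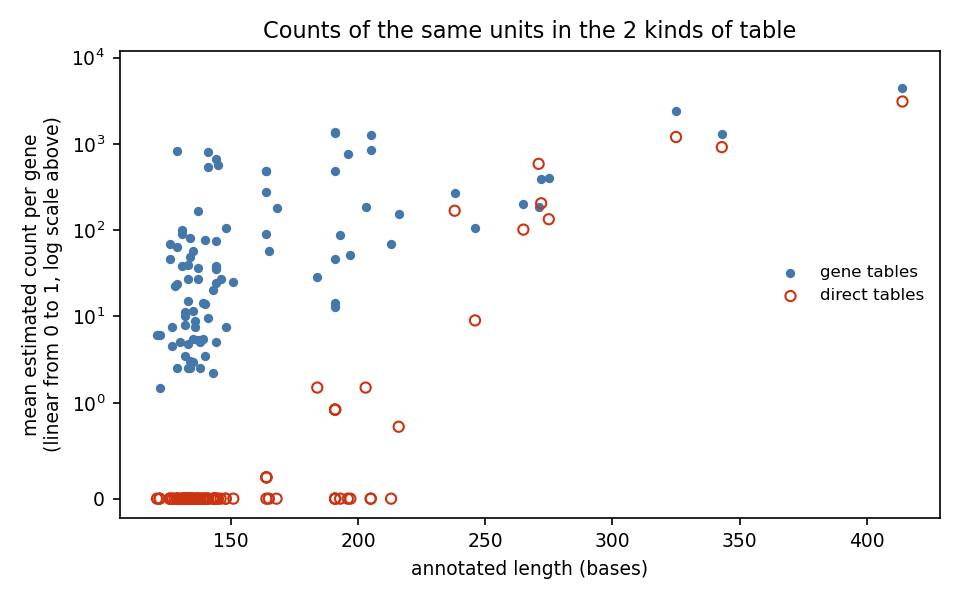
Mean estimated count per gene over the 2 libraries (y axis, linear from 0 to 1 and logarithmic above) against annotated length (x axis, bases) for the 93 units in the gene tables (filled) and the direct tables (open). The direct values lie at 0 for all units of up to 160 bases and above 230 bases range from below the gene-table values, the most so for Gm24119 (12 and 6 counts against 145 and 69), to above them for Gm23547.

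The genes of proteins that work with these RNAs were measured as messenger RNA in the same tables. Over 8 lists of 88 genes, each above the count minimum, 0 were 2-fold lower and 0 were 2-fold higher in replicate 2, and the median log2 ratio was -0.03. With 0.523% of all genes 2-fold apart, a count of 0 among 88 genes says little of these lists. The widest log2 ratios were those of Lsm5 (0.89, 48.24 and 81.65 counts) and Gemin8 (-0.77, 65.67 and 34 counts). Of the H/ACA proteins, Nop10 had a mean of 21.1 ± 1.36 TPM, Dkc1, the pseudouridine synthase, 8.31 ± 0.523, Nhp2 8.21 and Gar1 6.36. Of the box C/D proteins, Snu13 had 17.6 ± 1.88 TPM, Pih1d1 14.0, Fbl, the methyltransferase, 11.7 ± 1.55 and Nop58 10.8. The messenger RNAs of these proteins stood below the leading guide RNAs on the TPM scale, where short effective lengths raise the values of the guides. The median H/ACA unit, at 9.35 TPM, stood below Nop10 and above Dkc1, Nhp2 and Gar1. The Sm ring was led by Snrpb (43.9 ± 4.22 TPM), Snrpn (34.8), Snrpd2 (23.5) and Snrpe (22.5), and the LSm ring that binds U6 by Lsm6 (22.9 ± 2.62), Lsm4 (21.9), Lsm3 (21.6) and Lsm7 (10.9). Snrnp70, which binds U1, had 32.0 ± 3.61 TPM, Prpf8 31.7 ± 0.620, Sf3b1, which acts with U2, 28.3 and Snrnp200 23.4. Zcrb1 of the minor spliceosome had 34.8 ± 1.46 TPM, followed by Zmat5 (10.2), Pdcd7 (5.56) and Snrnp35 (4.51). Gemin7, of the complex that loads Sm rings, had 15.8 ± 1.80 TPM, followed by the cap-binding Ncbp2 (8.01), the export adaptor Phax (7.10) and Ncbp1 (6.36). Of the genes of snRNA transcription and 3′ end cleavage, Ints4 (19.5 ± 2.33 TPM), Ints1 (13.1), Ints3 (8.73) and Ice1 (8.68) were highest.

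The non-coding genes of the host list spread over a similar range. Of its 18 symbols 15 were in the tables, each above the count minimum, and their log2 ratios ran from -0.78 to 0.89. None was 2-fold apart, which at the all-gene share of 0.523% says nothing of a list of 15. Gas5 had 26.2 and 23.7 TPM, Snhg3 7.40 and 4.71 and Snhg1 5.33 and 6.73. Rmrp, an RNA of the same list that works in ribosomal RNA processing and hosts no snoRNA, had 1220 and 1061 TPM.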

How the data were processed

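Total RNA of 2 heart libraries was analysed from tables on mm10 with the GENCODE M21 annotation, per the notes deposited with them. The authors deposited expected counts per gene from an alignment and, in tables derived directly from the reads, estimated counts per transcript, neither normalized. TPM values were deposited by the authors per effective length over all genes and spike-ins, with credibility bounds and a posterior SD of the count beside them. The aligner, the quantifiers and the use of strand are not given in the sources used here, which leaves the values of genes that overlap uncertain.

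TPM was rescaled to endogenous genes, and the threshold of 1 was applied to the deposited TPM. Direct-table transcripts were summed per gene. Rounded expected counts were scaled by the TMM method (edgeR 4.0.16, R 4.3.3), with a prior count of 2 in log2 ratios. Folds of summed counts have exact binomial 95% counting intervals, which cover counting error only. U1 and U2 copies were taken at 90% identity (Biopython 1.88), and base differences were read position by position between sequences of the same length. Hosts were same-strand genes that span a unit, and where several did, the one with the highest TPM. A unit of several genes took the host of 1 of its loci. Gene symbols with several identifiers were represented by the one with the most counts. Alternatives included size factors of DESeq2 1.42.0. The remaining computation was in Python 3.11.15 (pandas 2.3.3, numpy 2.4.6, scipy 1.17.1), with figures by matplotlib 3.10.9.

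The members, lists and named genes were chosen with earlier results of these data known. Named were the 6 highest units of each class, the named spliceosomal snRNAs, the 6 largest log2 ratios in each direction, the 3 units nearest to the threshold on either side, the 6 highest in the direct tables, the 4 highest of each protein or host list and the hosts of leading units; the copies of U1, U2 and U3 outside this rule were chosen after their values were seen. The ratio rule was tested on simulated data with 4-fold changes planted in genes of higher counts. That test does not show how well the rule finds changes near 2-fold or at low counts.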

Additional observations from a re-analysis of the deposited data

How the results depend on the processing

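The median log2 ratio stayed below 0 in each alternative run for it, and of 45 alternatives over all results 31 stayed near the main value. The 93 units detected stayed within 1.5 times, at 69 to 107 over the other settings, and ran up to 115 with a single library. The 12 units 2-fold apart became 18 with no minimum count, 7 at a mean count of at least 50, 29 at 1.5-fold, 2 at 4-fold, 6 without units of shared counts and 6 with U1, U2 and U3 summed over all annotated copies. The last 2 settings, that without exon overlaps and that over all annotated genes were chosen after seeing the data. The median log2 ratio of -0.41 became -0.20 with spike-in totals and -0.52 at a mean count of at least 50. The mean share of endogenous TPM of 1.04% became 0.0735% as a share of counts, 0.503% per annotated length and 0.113% in the direct tables, and ran from 0.835% to 1.24% when a library was left out. The 9 units at 1 TPM in the direct tables became 18 with any value above 0, and were 9 and 10 when a library was left out. The median TPM of 22.4 became 8.42 per annotated length and 27.2 with each gene counted by itself, and ran from 17.8 to 23.1 when a library was left out. The change per annotated length follows from the subtracted 100 bases, and the cause of the others was not tested. No paired analysis was possible because there is 1 group. For 26 units with a mean count under 10, depth limits any ratio.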
